A study of Mus musculus with 4 samples.

Results

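The major urinary protein genes Mup3, Mup4, Mup5, Mup6, Mup20 and Mup21 were followed in RNA-seq counts of mTEChi, the medullary epithelial cells of the thymus that carry much MHC class II, sorted from Aire-KO and WT mice. The 6 genes were chosen by name, with 1 RefSeq ID each, out of 30794 RefSeq IDs that stood for 23003 gene symbols. All 6 had reads in at least 1 WT library, and all 6 passed the filter on low counts, Mup4, Mup5, Mup6 and Mup3 through their WT reads alone. Between Aire-KO and WT, Mup4, Mup5 and Mup6 were lower in Aire-KO mTEChi, with no read at all for Mup4 and Mup5 and 2 reads for Mup6. Mup20 and Mup3 had fewer reads in Aire-KO than in WT without passing the test across all RefSeq IDs, and Mup21 had a few reads in every library of either genotype.

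Major urinary proteins are small lipocalins, secreted proteins that fold into a barrel around a hydrophobic pocket. Mice make them mainly in the liver, from where they pass through blood into urine, bind volatile pheromones and release them slowly from scent marks. Some members are pheromones themselves, and some are made in lacrimal, salivary, nasal or mammary tissue instead of liver. In the thymus, mTEChi transcribe many genes of peripheral tissues, which exposes developing T cells to self-antigens, and Aire is the transcriptional regulator known for inducing a large share of them.

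The Aire-KO libraries came from mice that lack functional Aire, kept on a C57BL/6 (B6) background, and the WT libraries from B6 mice bought from a supplier, so the source of the mice and the genotype cannot be told apart. Each genotype had 1 library in a first experiment and 1 in a replicate experiment, and each library was made from the thymi of a pool of 4 mice aged 4 weeks, with a sort gate that kept I-A/E-high cells without CD45 or Ly51. The sex of the mice in the pools is not given in the sources used here. With 2 libraries for each genotype, p-values measure the spread between these pools.

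Library totals over all RefSeq IDs were 168899954 and 242862323 counts in Aire-KO and 191404483 and 111077552 in WT. The sorted identity was read from markers: none of 12 mTEC markers, such as Cd80 and H2-Aa, was called between genotypes by edgeR (0 at an unadjusted p under 0.05, 0 called by DESeq2, and 1 called lower without the Aire-KO library of the replicate experiment), and all were present in every library. Counts of Aire itself, summed over the gene, were 200697 and 175884 in the libraries labelled Aire-KO and 87229 and 36597 in those labelled WT. These counts have no value for the deleted part of the gene, so they do not check the labels, and every direction given here is that of the labels. Over all RefSeq IDs, edgeR called 1495 of 26790 lower in Aire-KO and 69 higher, and the median log2 fold change was 0.03.

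The 6 genes lie at the 2 ends of a cluster of 21 Mup genes that spans 1842 kb of chromosome 4 (mm9, GENCODE annotation). At one end are Mup4 (59969676 to 59973582, minus strand) and the Mup6 transcript used here (60016421 to 60019086, plus strand). At the other end are Mup5 (61492353 to 61496267), Mup20 (61711268 to 61715192), Mup3 (61744510 to 61748376) and Mup21 (61808966 to 61811897), all on the minus strand. The 15 other Mup genes lie between these ends, separated by pseudogenes. Mup4, Mup5, Mup20 and Mup3 have 7 exons each, and Mup6 and Mup21 have 6.

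The reads were 50 bases long, and whether such a read can tell one Mup gene from another depends on the sequence. The first 50 bases of exon 2 are shown because they differ between most members, with those of Mup1 as one of the other genes of the cluster. Capitals mark bases that differ from Mup4.
Mup4 (chr4:59972995-59973044, minus strand): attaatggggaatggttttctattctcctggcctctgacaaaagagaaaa
Mup6 (chr4:60016850-60016899, plus strand): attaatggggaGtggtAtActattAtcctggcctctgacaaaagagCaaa
Mup5 (chr4:61495673-61495722, minus strand): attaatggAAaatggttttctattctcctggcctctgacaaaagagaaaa
Mup20 (chr4:61714598-61714647, minus strand): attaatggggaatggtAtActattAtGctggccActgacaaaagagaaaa
Mup3 (chr4:61747918-61747967, minus strand): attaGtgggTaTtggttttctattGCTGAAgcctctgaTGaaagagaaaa
Mup21 (chr4:61811313-61811362, minus strand): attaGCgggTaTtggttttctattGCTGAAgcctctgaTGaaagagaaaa
Mup1 (chr4:60514238-60514287, minus strand): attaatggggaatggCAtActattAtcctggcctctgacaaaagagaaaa

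Over these 50 bases, Mup5 differed from Mup4 at 2 positions, Mup6 and Mup20 at 5 each, Mup3 at 11 and Mup21 at 12. The Mup4, Mup5, Mup6, Mup3 and Mup21 windows each occurred once in the mm9 genome, the Mup20 window occurred 2 times, and the Mup1 window 14 times. Over exons 2 to 5 (421 bases), the 15 pairs of listed genes were 82.7% to 96.9% identical, with the pair of Mup3 and Mup21 at the top. The 105 pairs of other Mup genes were 98.6% to 100% identical, and the 90 pairs of a listed and another gene 82.4% to 90.3%. The listed genes were thus set apart from the others by sequence as well as by position. They were no closer to each other than to the others, with medians of 86.7% and 88.7%.

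Every window of 50 bases inside an exon was then looked up in the whole genome. Windows that occurred once made up 91.8% of Mup6 (247 of 269), 84.9% of Mup4, 84.3% of Mup5, 75.3% of Mup3 and 68.9% of Mup21, against a median of 7.84% (range 0 to 26.2%) in the 15 other Mup genes. Mup20 was the exception among the listed genes, with 12.9% (76 of 588). An exact copy of 357 of its 588 windows (60.7%) lay in or within 2000 bp of a single pseudogene, Mup-ps19, so a read counted for Mup20 could have come from either copy. When up to 2 mismatches were allowed within the cluster, unique windows fell to 50.6% in Mup5, 48.2% in Mup3, 43.8% in Mup21, 32.3% in Mup4, 19.7% in Mup6 and 0% in Mup20. How the aligner placed reads with several equal matches is not given in the sources used here. Such reads were not all discarded, since Mup19, with 0 of 587 windows found once, had 205 and 113 counts in WT. How they were shared among the copies is not known, and counts of near-identical genes are uncertain for that reason.

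**Figure D1:**
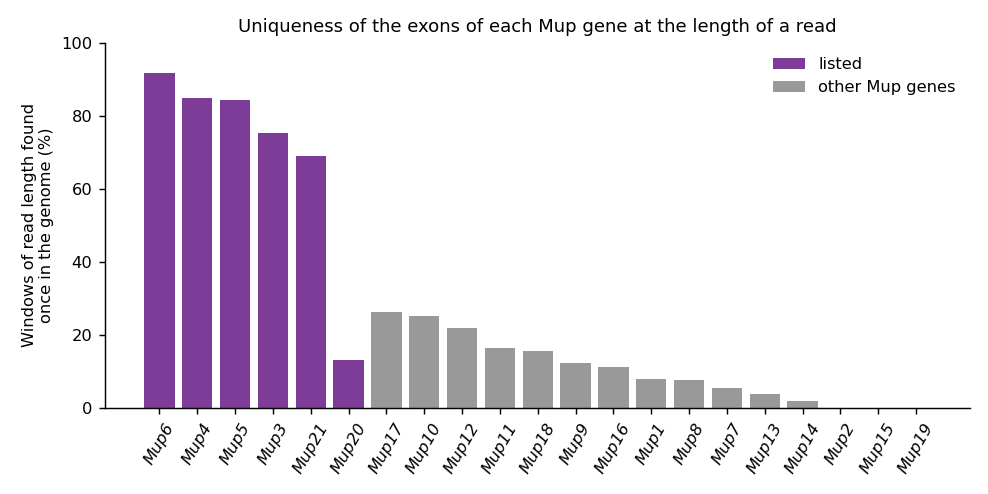
Bars give, for each Mup gene, the percentage of windows of 50 bases within its exons that occur once in the mm9 genome. Of the 6 listed genes (purple), 5 lie between 68.9% and 91.8% and Mup20 lies at 12.9%, while the 15 other Mup genes (grey) lie between 0% and 26.2%.

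Near-identical copies can carry identical counts, so these were looked for. None of the 6 listed genes shared its counts in all 4 libraries with another Mup RefSeq ID. Identical counts were found for 2 RefSeq IDs out of 20 in the family, both of which belong to Mup1.

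A stretch before the start codon of the listed genes is shown because all 6 share the letters of a TATA box there. It lies just inside the annotated start of each gene except Mup6, where it lies before the transcript used here. Capitals mark TATATAA, which starts 97 bases before the start codon in each gene.
Mup4 (chr4:59973549-59973578, minus strand): acccagagcaTATATAAagacaagcaaagg
Mup6 (chr4:60016314-60016343, plus strand): acccagagagTATATAAagacaagcaaagg
Mup5 (chr4:61496234-61496263, minus strand): ccccagagcgTATATAAggacaagctaagg
Mup20 (chr4:61715161-61715190, minus strand): acccagagagTATATAAgtacaagcaaagg
Mup3 (chr4:61748343-61748372, minus strand): aaccagagagTATATAAggacaagcaaagg
Mup21 (chr4:61811864-61811893, minus strand): aaccagagagTATATAAggacaagcaaagg

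Of the 6 genes, 4 had a promoter of 300 bases in the RefSeq table (GRCm38), and all 4 held TATATAA on the gene's strand. Of 32851 promoters in that table, 2.20% held these letters on the gene's strand and 3.24% on either strand. The motif was thus common to all 6 genes, whether or not they were called between genotypes below.

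Mup4, a member known from lacrimal, salivary and nasal tissue rather than liver, had 0 and 0 counts in the Aire-KO libraries (first and replicate experiment), against 507 and 317 in WT. In CPM, counts scaled by the normalized library size, this was 0 in both Aire-KO libraries and 2.32 and 2.66 CPM in WT. The genotypes did not overlap, and the WT libraries lay close to each other. Set against a floor of 3 counts per Aire-KO library, Mup4 was at least 148-fold lower in Aire-KO, and edgeR called it (adjusted p = 0.0176). In bulk samples of sorted cells, fewer cells that transcribe a gene and less RNA in each cell cannot be told apart.

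Mup6 had 2 and 0 counts in Aire-KO and 604 and 287 in WT, or 0.0138 and 0 CPM against 2.76 and 2.41 CPM. Its level was 494-fold lower in Aire-KO, with an exact interval from 136-fold to 4088-fold that covers counting error only and takes reads as independent. The fitted log2 fold change was -8.67 (SE 1.12, edgeR adjusted p = 0.0191). Without the Aire-KO library of the first experiment, which held both Aire-KO reads, it was -11.93, and without that of the replicate experiment -7.47, with the gene called in each case. Of its windows, 91.8% occurred once in the genome by exact match and 19.7% once in the cluster with up to 2 mismatches.

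Mup5, which is known from submaxillary and lacrimal glands, had fewer reads. It had 0 and 0 counts in Aire-KO and 93 and 59 in WT, which is 0.425 and 0.495 CPM in WT. It was at least 27.3-fold lower in Aire-KO (edgeR adjusted p = 0.0353). That smaller bound follows the lower count in WT, since both genes were at 0 in Aire-KO.

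Mup20 encodes darcin, the male urinary protein that attracts females and that they learn to remember. It had 4 and 28 counts in Aire-KO and 207 and 85 in WT, or 0.0275 and 0.122 CPM against 0.945 and 0.713 CPM. The genotypes did not overlap, but the Aire-KO library of the replicate experiment held most of the Aire-KO reads. Its log2 fold change was -3.43 (SE 0.94) and missed the threshold in the fit on genotype alone (edgeR adjusted p = 0.0883). With the experiment as a block that pairs the libraries, the log2 fold change was -3.65 and passed (edgeR adjusted p = 0.0227). DESeq2 called it as well (adjusted p = 0.00584), as did edgeR without the Aire-KO library of the first experiment (log2 fold change -2.76, adjusted p = 0.0420) or without that of the replicate experiment (-4.87, adjusted p = 0.00153). It did not pass without the WT library of the first experiment (-3.09, edgeR adjusted p = 0.273) or without that of the replicate experiment (-3.59, adjusted p = 0.160). Reads in the windows shared with the copy around Mup-ps19 cannot be assigned to Mup20 with certainty, in either genotype.

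Mup3, a liver member, had 1 and 6 counts in Aire-KO and 70 and 8 in WT, or 0.00688 and 0.0261 CPM against 0.320 and 0.0671 CPM. The genotypes did not overlap, yet the WT libraries differed 4.76-fold from each other, by more than any other listed gene. The log2 fold change was -3.44 (SE 1.27) and did not pass (edgeR adjusted p = 0.184), and without the WT library of the first experiment it was -1.81 (adjusted p = 0.829).

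Mup21 had 11 and 12 counts in Aire-KO and 14 and 4 in WT, or 0.0757 and 0.0522 CPM against 0.0639 and 0.0336 CPM. The genotypes overlapped. The log2 fold change was 0.35 (SE 1.01, edgeR adjusted p = 0.914), and its 95% interval ran from -1.63 to 2.32. Its sign turned without the WT library of the replicate experiment (-0.025). Of the 6 listed genes, Mup21 alone had a fitted value above 0, in a gene that shares 96.9% of exons 2 to 5 with Mup3.

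**Figure D2:**
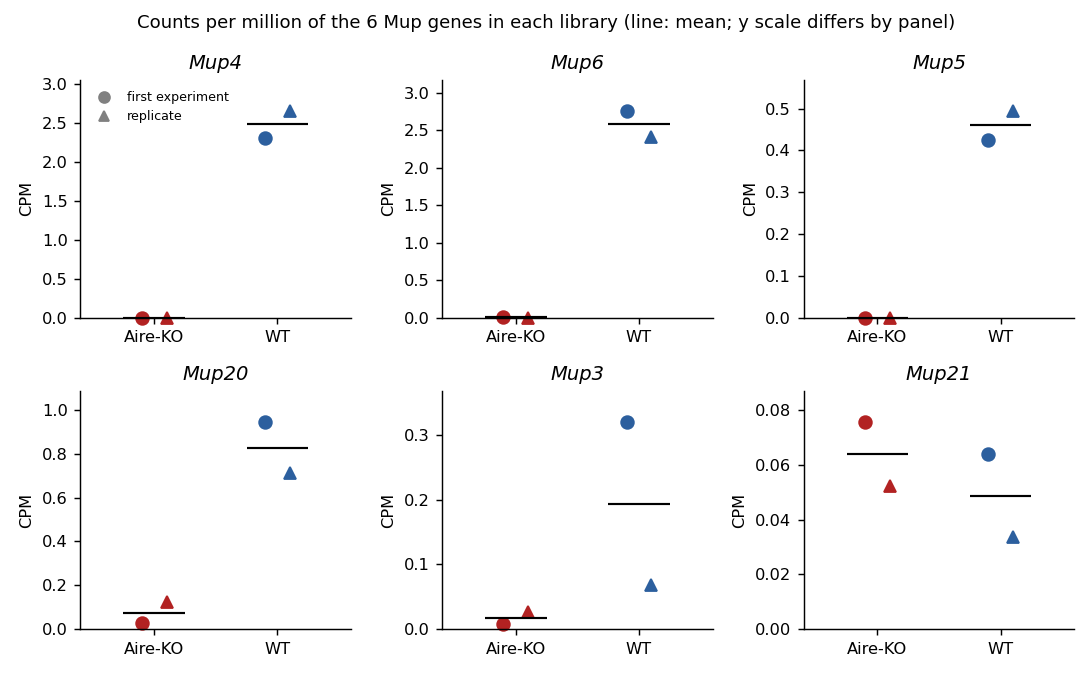
Each panel plots the CPM of 1 listed gene in the 2 Aire-KO libraries (red, left) and the 2 WT libraries (blue, right), with circles for the first experiment, triangles for the replicate experiment and a line at the mean. Mup4 and Mup5 are at 0 in both Aire-KO libraries, the genotypes do not overlap in 5 of 6 genes, and Mup21 overlaps. The y axis starts at 0 and differs by panel.

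Over the members, 3 of 6 were called lower in Aire-KO and 0 higher, beside 5.58% of all RefSeq IDs tested that were called lower and 0.258% called higher. At an unadjusted p under 0.05 in edgeR, 5 of the 6 were lower and 0 higher, beside 4524 lower and 1061 higher of 26790 RefSeq IDs. DESeq2 called 4 lower and 0 higher, beside 3528 lower and 565 higher of 29571 RefSeq IDs. In 5 of 6 genes both Aire-KO libraries lay below both WT libraries, as was the case for 28.4% of all RefSeq IDs tested. Mup4, Mup5, Mup6 and Mup3 had too few reads in Aire-KO to pass the filter there. They passed it through WT alone, so their direction and lack of overlap were fixed by the filter. The median log2 fold change of the 6 was -6.05, beside 0.03 for all RefSeq IDs tested. It was -4.11 with Mup4 and Mup5 set at their bounds and -4.33 with a prior count of 2, since fitted values of genes at 0 depend on that count.

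The 6 genes together had 18 and 46 counts in Aire-KO against 1495 and 760 in WT, or 0.124 and 0.200 CPM against 6.83 and 6.38 CPM. The makeup of this sum differed between genotypes. In the Aire-KO libraries, Mup21 and Mup20 held the highest shares, with 61.1% for Mup21 in the first experiment (11 of 18, exact 95% interval 35.7% to 82.7%) and 60.9% for Mup20 in the replicate experiment (28 of 46, 45.4% to 74.9%). In the WT libraries, Mup6 held 40.4% (37.9% to 42.9%) and 37.8% (34.3% to 41.3%). Mup4 held 33.9% (31.5% to 36.4%) and 41.7% (38.2% to 45.3%) in WT. The share of Mup3 in WT was 4.68% (3.67% to 5.88%) in the first experiment and 1.05% (0.456% to 2.06%) in the replicate experiment. These intervals cover counting error only and take reads as independent. Both mates of a fragment could be counted and PCR copies were not removed, so the intervals can be too narrow even for counting error.

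Levels were compared between genes per length, as counts per kilobase of transcript, scaled to the library total (RPKM). In WT, Mup6 was highest at 5.31 ± 0.75 RPKM, followed by Mup4 at 3.14 ± 0.17 and Mup20 at 1.04 ± 0.25 (SD, n = 2). Mup5 followed at 0.583 ± 0.037 RPKM, then Mup3 at 0.241 ± 0.229 and Mup21 at 0.0723 ± 0.0348. The order was the same in both WT libraries, and of the neighbours in it, Mup3 and Mup21 overlapped (0.403 and 0.0794 RPKM against 0.0969 and 0.0477 RPKM). In Aire-KO, Mup20 stood at 0.0784 ± 0.0731 RPKM, Mup21 at 0.0759 ± 0.0147, Mup3 at 0.0169 ± 0.0146 and Mup6 at 0.0110 ± 0.0155. The WT mean of Mup6 was above that of 52.7% of the tested RefSeq IDs with a length, that of Mup4 above 41.1%, and that of Mup21 above 1.59%. The RefSeq record of Mup6 holds coding exons alone (540 bp), whereas those of the other 5 hold UTRs and are 755 to 907 bp long.

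The position of the reads within each transcript was given by the tables that count the 5′UTR, the other exonic part and the 3′UTR one by one. In WT, Mup4 had 296 and 165 reads in exons of 511 bp and 157 and 116 in a 3′UTR of 298 bp, that is 57.9 and 32.3 counts per 100 bp of exon beside 52.7 and 38.9 per 100 bp of 3′UTR. Mup5 had 53 and 27 exonic reads beside 31 and 32 in the 3′UTR. Mup20 had 1 and 18 exonic reads and 2 and 9 reads in the 3′UTR in Aire-KO, against 115 and 39 and 72 and 40 in WT. Reads of Mup4, Mup5 and Mup20 in WT were thus found both in the coding part and in the 3′UTR in each experiment.

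Mup3 and Mup21 were less even. Mup3 had 1 and 6 exonic reads and 0 and 0 reads in the 3′UTR in Aire-KO, against 24 and 0 exonic reads and 42 and 8 in the 3′UTR in WT. All 8 reads of Mup3 in the WT library of the replicate experiment lay in the 3′UTR. Mup21 had 7 and 1 exonic reads and 2 and 0 in the 3′UTR in Aire-KO, against 14 and 0 and 0 and 4 in WT. In its 5′UTR it had 0 and 4 reads in Aire-KO and 0 and 0 in WT. Its parts summed to 9 and 5 reads in Aire-KO, fewer than its 11 and 12 counts over the gene. None of the 6 listed genes has a distal 3′UTR, the stretch after a proximal polyadenylation site on which the study was centred, so its ratio was not defined for them.

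The other Mup genes of the cluster, which encode the near-identical urinary proteins of liver, were set beside the listed ones. Of them, 11 were matched to a symbol, with medians of 6 and 7 counts (range 0 to 13) in the Aire-KO libraries and of 197 and 119 counts (ranges 160 to 248 and 101 to 146) in WT. In CPM, the 11 genes added up to 0.434 and 0.348 in Aire-KO and 9.88 and 11.1 in WT. edgeR called 10 of the 11 lower and 0 higher, with log2 fold changes of the 11 from -6.70 to -3.85 and a median of -4.61. Except for Mup17, these genes passed the filter through WT alone, so their direction was fixed by the filter.

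Among these genes, Mup14 had 3 and 1 counts in Aire-KO and 189 and 119 in WT (log2 fold change -6.26, edgeR adjusted p = 0.0296). Mup1 had 0 and 4 counts in Aire-KO and 248 and 128 in WT. Mup17 was the gene not called, with 13 and 4 counts in Aire-KO and 160 and 146 in WT (-4.23, edgeR adjusted p = 0.0645). Without the WT library of the replicate experiment, 5 of the 11 were called, and with the experiment as a block all 11 were. These genes are not independent of each other, because a window of one can match up to 14 other places, and the counts stand for the group rather than for each gene.

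**Figure D3:**
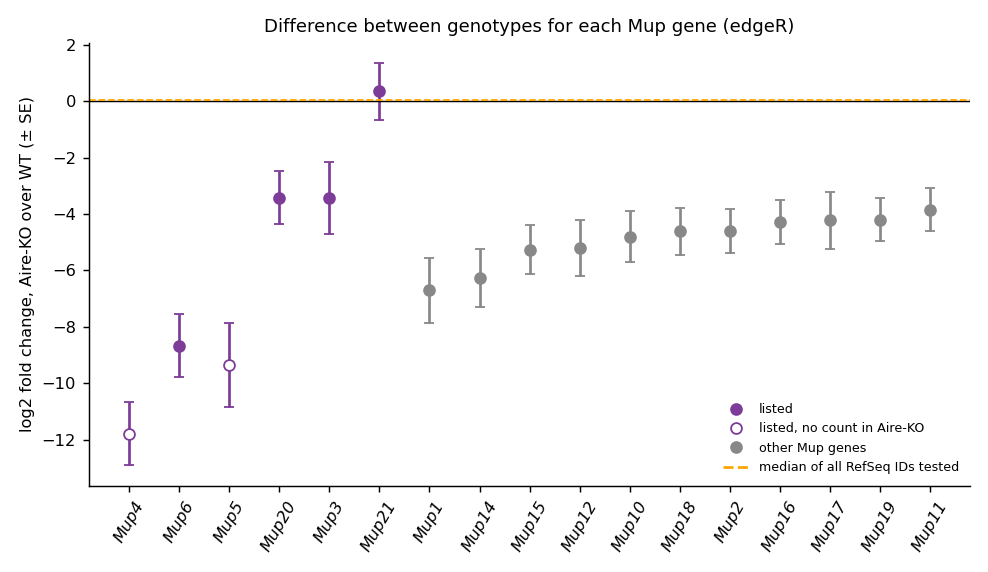
Points give the log2 fold change of each Mup gene, Aire-KO over WT, with bars of 1 SE from edgeR. The listed genes (purple) span from -11.79 for Mup4, an open point because it has no count in Aire-KO and its fitted value depends on the prior count, to 0.35 for Mup21, while the 11 other genes (grey) lie between -6.70 and -3.85.

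Per length, the 11 other genes had a median of 1.11 RPKM (range 0.902 to 1.40) and 1.16 RPKM (0.978 to 1.42) in the WT libraries. Mup4 and Mup6 lay above this range in both WT libraries and Mup5, Mup3 and Mup21 below it, while Mup20 was inside it in the first experiment (1.22 RPKM) and below it in the replicate experiment (0.864 RPKM). Along the cluster, the 2 members at the Mup4 end were thus the highest in WT among the genes matched to a symbol. The levels of the 11 other genes depend on how reads with several matches were shared among the copies, which is not known. The rank of the listed genes beside single other genes is uncertain for that reason.

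**Figure D4:**
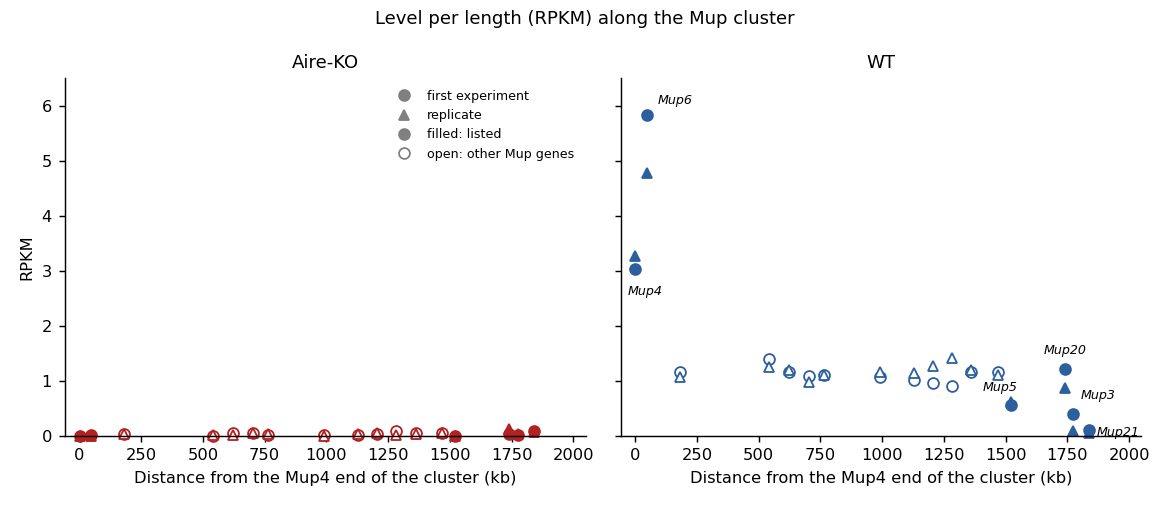
The level of each Mup gene in RPKM is plotted against its distance in kb from the Mup4 end of the cluster, in Aire-KO (left) and WT (right), with circles for the first experiment and triangles for the replicate experiment. Filled symbols are the 6 listed genes and open symbols the 11 others (their lengths from the GENCODE transcripts). In WT, Mup4 and Mup6 lie between 3.03 and 5.84 RPKM at the left end and Mup21 at 0.0969 RPKM or less at the right end, and in Aire-KO no gene exceeds 0.130 RPKM.

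The genes that flank the cluster were read from the same fit. Slc46a2, a thymic solute carrier 41748 bp away on the Mup4 side, had 5556 and 19001 counts in Aire-KO and 12016 and 7219 in WT (log2 fold change 0.07, edgeR adjusted p = 0.966). Zfp37, a zinc finger gene 38677 bp away on the Mup21 side, had 795 and 371 counts in Aire-KO and 1060 and 300 in WT (-0.06, edgeR adjusted p = 0.980). Of the 3 nearest genes on each side (Slc46a2, Snx30, Inip, Zfp37, Slc31a2 and Fkbp15), 0 were called by edgeR, 1 was higher at an unadjusted p under 0.05, and 0 were called by DESeq2. With the experiment as a block, 3 were higher in Aire-KO: Snx30 (log2 fold change 1.38, edgeR adjusted p = 4.2e-04), Slc31a2 (0.84, 0.00871) and Fkbp15 (0.74, 0.0153). No flanking gene was lower in Aire-KO by any of these tests.

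Genes that make up the known control of Mup transcription in liver were described next. Growth hormone acts there through its receptor, Jak2 and Stat5, and the promoters are served by liver factors such as the HNF and C/EBP proteins. Of 18 such genes, all were tested, 1 was called lower in Aire-KO and 0 higher, and the median log2 fold change was 0.07. The gene called was Hnf4a, which encodes a nuclear receptor of hepatocytes, with 217 and 294 counts in Aire-KO and 1408 and 1251 in WT (-2.61, edgeR adjusted p = 0.0366). That call was lost without the WT library of the replicate experiment (0 of 18), and with the experiment as a block 2 of the 18 were lower and 6 higher.

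Mups are among the genes that male liver makes in larger amounts than female liver, and other genes of both kinds were counted. Of 10 male-biased liver genes, 4 were called lower and 0 higher, with a median of -2.36. Cyp4a12a, a fatty acid hydroxylase, had 12 and 17 counts in Aire-KO and 363 and 232 in WT (-4.52, edgeR adjusted p = 0.0236), and the related Cyp4a12b, which shares much of its sequence, had 25 and 43 against 392 and 280 (-3.52, 0.0329). Of 10 female-biased liver genes, 9 were tested and 3 were called lower, with a median of -5.16 (-3.23 with the 4 genes at 0 in Aire-KO set at their bounds). Cyp3a41a, a female liver cytochrome, had 11 and 17 counts in Aire-KO and 741 and 238 in WT (-5.16, edgeR adjusted p = 0.0193). A1bg, an alpha-1B-glycoprotein gene, had 0 and 0 counts against 109 and 61 (at least 30.0-fold lower, 0.0334). Lower counts in Aire-KO were thus found among liver genes of both kinds. With the experiment as a block, 6 genes of each of the 2 lists were lower, without the WT library of the replicate experiment 1 male-biased gene was, and without the Aire-KO library of the first experiment 5 female-biased genes were.

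Transcripts of both sexes were found in each library. Xist, made from the inactive X chromosome of females, had 1572 and 133 CPM in Aire-KO and 381 and 140 CPM in WT. Ddx3y, a gene of the Y chromosome, had 33.4 and 7.85 CPM in Aire-KO and 58.1 and 14.0 CPM in WT. Neither these nor the other 3 Y-linked genes counted were called by edgeR (0 of 5 at an unadjusted p under 0.05) or by DESeq2, although 1 was called lower with the block or without the Aire-KO library of the first experiment, and 1 higher without the Aire-KO library of the replicate experiment or the WT library of the first. The part of sex in the Mup counts was not tested.

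Of 15 hepatocyte genes, 6 were called lower in Aire-KO and 0 higher, with a median of -3.41. The 2 with the smallest p were chains of fibrinogen, the clotting protein of plasma. Fgb had 5 and 18 counts in Aire-KO and 1499 and 1071 in WT (-7.07, edgeR adjusted p = 0.0176), and Fga had 5 and 2 against 1126 and 718 (-8.08, 0.0176). With the block 12 of 15 were lower, and 13 were without the Aire-KO library of the replicate experiment and 11 without the WT library of the first experiment. The hepatocyte genes summed to 35.7 and 63.3 CPM in Aire-KO and 134 and 383 CPM in WT.

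Secretory genes of lacrimal, salivary and mammary glands, where several listed Mup genes are made, were called lower in part. Of 16 such genes, 14 were tested and 7 were called lower and 0 higher, with a median of -6.04 (-4.82 with a prior count of 2). With the experiment as a block, 9 were lower and 1 higher, and the same counts were found without the Aire-KO library of the replicate experiment. The list summed to 1723 and 1070 CPM in Aire-KO against 797 and 854 CPM in WT. Most of the Aire-KO sum was Csn2, which encodes beta-casein of milk and is named here after its values were seen, at 1507 and 694 CPM in Aire-KO against 553 and 447 CPM in WT (log2 fold change 1.14, edgeR adjusted p = 0.246, and 1.04 with adjusted p = 0.00910 with the block). Dcpp1, a secreted protein of salivary glands whose family holds close copies, had 1 and 0 counts in Aire-KO and 1897 and 2274 in WT (edgeR adjusted p = 0.0176), and Dcpp3 of the same family had 5 and 4 against 1414 and 1395 (-8.47, 0.0176). Dcpp1 was 4628-fold lower in Aire-KO, with an exact interval from 830-fold to 182854-fold for counting error of independent reads.

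The lipocalin family has other members that carry odorants in nasal and glandular secretions. Of 11 such genes looked for, 5 were matched, and the others had no value here. All 5 that were matched were called lower in Aire-KO, with a median of -8.63 (-8.16 with Lcn4, at 0 in Aire-KO, set at its bound). Obp2a, an odorant-binding protein, had 2 and 9 counts in Aire-KO and 1193 and 1310 in WT (-8.16, SE 0.81, edgeR adjusted p = 0.0176). Lcn11 had 1 and 0 counts against 407 and 396 (edgeR adjusted p = 0.0176). It was 891-fold lower in Aire-KO, with an exact interval from 159-fold to 35238-fold for counting error of independent reads. These 5 were called under each alternative run. All 5 had too few reads in Aire-KO to pass the filter there and passed it through WT alone, so their direction was fixed by the filter.

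**Figure D5:**
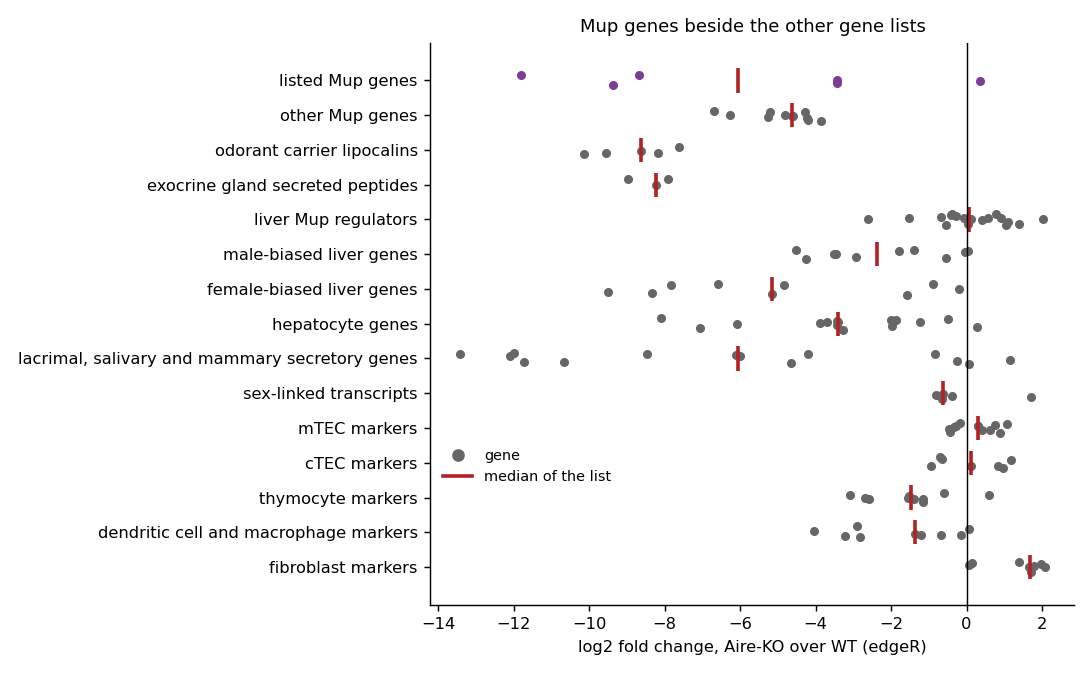
Each point is the log2 fold change, Aire-KO over WT, of 1 gene in the list named at the left, with a red line at the median of the list. The listed Mup genes (purple) have a median of -6.05 (-4.11 with genes at 0 in Aire-KO set at their bounds), the other Mup genes of -4.61 and the odorant carrier lipocalins of -8.63, while the liver regulators of Mup genes (0.07), the mTEC markers (0.30) and the cTEC markers (0.11) lie around 0.

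Markers of other cells that the sort could hold moved with genotype in part. Of 9 tested markers of dendritic cells and macrophages, 2 were called lower in Aire-KO, Itgam (2.82 and 3.17 CPM in Aire-KO, 17.3 and 24.7 CPM in WT) and Adgre1 (0.502 and 0.983 CPM against 6.88 and 7.03 CPM), and the list summed to 349 and 362 CPM in Aire-KO against 301 and 546 CPM in WT. Of 8 fibroblast markers, 3 were called higher, among them Dpt (10.5 and 11.5 CPM in Aire-KO against 2.39 and 2.81 CPM in WT) and Col1a2 (33.7 and 42.1 CPM against 11.6 and 7.76 CPM), and the list summed to 316 and 277 CPM against 135 and 109 CPM. Of 10 thymocyte markers, 0 were called by edgeR, 4 were lower at an unadjusted p under 0.05, DESeq2 called 2 and the block 6, and the list summed to 33.1 and 39.6 CPM in Aire-KO against 42.8 and 64.7 CPM in WT. DESeq2 called 4 of the dendritic cell and macrophage markers lower and 5 of the fibroblast markers higher, and the block called 3 lower and 6 higher. Of 7 cTEC markers, 0 were called by edgeR or DESeq2, 2 were higher at an unadjusted p under 0.05, and the block called 1 lower and 3 higher, while it called 4 of the 12 mTEC markers higher. Leaving out 1 library gave 2 to 4 lower dendritic cell and macrophage markers, 0 to 3 lower thymocyte markers and 0 to 4 higher fibroblast markers, the 0 in each case without the WT library of the replicate experiment. No marker of these lists was at 0 in all libraries, and their part in the Mup counts was not tested.

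The 3 genes outside the family whose levels were nearest to those of Mup6, the listed gene with most reads, were found by the largest difference in log2(CPM + 0.1) over the 4 libraries. Hsd17b3, the testis enzyme that makes testosterone, was nearest, with a largest difference of 0.19. It had 0 and 0 counts in Aire-KO and 578 and 320 in WT. Slc6a11, a GABA transporter of the brain, had 3 and 0 counts against 609 and 330 (0.19), and Lipf, the lipase of the stomach, had 0 and 0 against 547 and 244 (0.22). These genes were picked for their likeness over 4 libraries, which is a description of level.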

How the data were processed

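RNA-seq reads of 4 mTEChi libraries were trimmed and joined by the authors to single-end reads of 50 bp, filtered with CASAVA and aligned to mm9 by Bowtie (version 1.0.0), and reads wholly inside a RefSeq exon were counted with bedtools. What was deposited are raw counts per RefSeq ID and per transcript part, without normalization, from a kit that does not mark strand. RefSeq IDs were matched to symbols in 29352 of 30794 cases (95.3%), and 1442 were used without a name.

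Genotypes were compared with edgeR 4.0.16 (TMM factors, filterByExpr, quasi-likelihood test, genotype only), with Benjamini-Hochberg adjustment over all 26790 RefSeq IDs tested and 0.05 as threshold. Genes with few reads in Aire-KO passed filterByExpr through WT alone, which fixed their direction, also in the other lists. DESeq2 1.42.0, other normalizations, no filter, a replicate block and leaving out each library were alternatives. The block pairs libraries of an experiment, which the study's methods and the tables name, and deviations of paired libraries from group means correlated at 0.64 across RefSeq IDs. CPM use TMM-scaled totals, RPKM unscaled ones. Windows of 50 bases were looked up in mm9 (GENCODE genes). Promoter sequences for the motif share came from RefSeq (GRCm38).

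Members, lists and tests were chosen with earlier results of these data known. The 6 listed genes are all named, and from other lists the 2 called genes with the smallest p, beside markers of sex and thymus, the flanking genes and the 3 nearest profiles. Mup1, Mup17, Lcn4 and Csn2 were named after their values were seen. RefSeq IDs of other Mup genes without a symbol were not used here.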

Additional observations from a re-analysis of the deposited data

How the results depend on the processing

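Mup4, Mup5 and Mup6 were called lower in Aire-KO under each of the 13 alternatives run for them, Mup3 under none, and Mup20 under the 4 given in the report (edgeR adjusted p from 0.00153 to 0.273 over all 13). Leaving out 1 library gave 3 to 4 called Mup genes of 6. The sign of Mup21 turned in 1 of 12, and without 1 library its log2 fold change ran from -0.025 to 0.98, while its sum over transcript parts was too low to test. Among the alternatives, the prior count of 2 changes fold changes alone, so its calls were bound to be those of the main fit.

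Of all RefSeq IDs, 1495 were lower and 69 higher in Aire-KO. Lower and higher calls were 4428 and 2777 with the replicate block, which pairs the experiments, and 3528 and 565 by DESeq2. Library sizes alone gave 2470 lower, with a median of -0.26 instead of 0.03, and no filter gave 143 higher. Leaving out 1 library gave 1524 to 3664 lower and 66 to 521 higher. Lower calls made up 95.6% of all calls and 61.5% with the block, 86.2% by DESeq2, and 84.1% to 96.1% when 1 library was left out. Levels in RPKM rose with the effective length (each exon less 49 bases), to 10.7 for Mup6 and 5.14 for Mup4 in WT. With 2 libraries a genotype and under 30 counts in some, counts of Mup3 and Mup21 limit the precision of their fold changes.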

Other observations

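The exocrine gland secreted peptides are another family of mouse pheromones, made in lacrimal and salivary glands and sensed by the vomeronasal organ. Of 14 matched genes, 3 had enough reads to be tested and 1 was called, Esp6, with 0 and 0 counts in Aire-KO and 88 and 35 in WT (at least 20.6-fold lower in Aire-KO, edgeR adjusted p = 0.0404). Without the WT library of the first experiment 0 were called, without the Aire-KO library of the first experiment 3, and without that of the replicate experiment 2. All 3 tested had no count in Aire-KO and passed the filter through WT alone, so their direction was fixed by the filter. They were lower at an unadjusted p under 0.05, and 3 were called by DESeq2, with the experiment as a block, and by edgeR with library sizes alone. Without the filter, edgeR tested 11 genes, of which 3 were lower at an unadjusted p under 0.05 and 1 was called.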
